A study of Caenorhabditis elegans with 12 samples.

Results

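The comparison described here set Caenorhabditis elegans libraries labelled osm-9(ok1677) against wild-type libraries under the ordinary salt of the growth agar, 51 mM NaCl, before any osmotic challenge. It took in 6 of the 12 libraries of the series, 4 of the mutant and 2 of the wild type, chosen by their labels alone, and every locus that carried enough counts. The question was which transcripts differed between the strains at rest. OSM-9 is a channel subunit of the TRPV family, cation channels opened by noxious chemical and physical stimuli. In worms it acts in the cilia of sensory neurons such as ASH, a pair of head neurons that detect high osmolality, touch and repellents, where it works with the related subunit OCR-2.

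The wild type was the Bristol strain N2. The mutant was VC1262, a single strain that carries the deletion allele ok1677 of osm-9 and that was described by the study as slightly slow to develop, which the staging took into account. All animals of both strains were synchronized larvae of the fourth stage (L4), grown at 20 °C and then kept for 6 h on plates with 51 mM NaCl. RNA came from whole worms, many animals to a library, so fewer cells of a type and less RNA per cell cannot be told apart. The other 6 libraries held the same 2 strains after 6 h at 200 mM NaCl and were used for the shared estimate of the spread and as values side by side.

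The 51 mM libraries held 15949889 to 21184479 counts each, and 3 counts, taken here as the floor of detection of a library, amounted to 0.137 to 0.186 CPM (counts scaled to library size). In every pair of replicates of a strain 44.4 to 70.2% of well-counted loci differed by more than sampling noise, so no library was a copy of another. Markers of intestine, hypodermis, body wall muscle, pharynx, neurons, germ cells and sperm were all counted. Of 8 hypodermis markers 3 were higher in the mutant, with summed levels of 234 and 242 CPM in N2 and 301 to 742 CPM in the mutant. Of these 8 markers 2 had log2 fold changes below 0, the lowest -0.406, and 1 of the 3 called shares its locus with another gene. Of 4 dauer larva markers 2 were higher, and the 4 summed to 16.3 and 13.2 CPM against 57.5 to 110 CPM. The other 2 dauer larva markers had log2 fold changes below 0, the lowest -1.68, and neither was called lower. All 3 male markers tested lay above 0, with 1 called higher. All 8 young adult soma markers, all 6 sperm markers and 9 of 10 intestine markers lay below 0. In each of these 3 sets 1 marker was called lower. Over all tested loci 7.64% were called higher and 4.63% lower. The part of these marker differences in the results below was not tested. The mutant replicates 2 and 3 stood apart from replicates 1 and 4. The summed level of 20 collagens that set body shape (the dpy, sqt and rol genes) was 4942 and 6015 CPM in mutant replicates 2 and 3, 907 and 1609 CPM in replicates 1 and 4, and 627 and 665 CPM in N2. The summed level of the 6 vitellogenins, yolk proteins that the intestine begins to make late in L4, went the other way, with 14560 and 9283 CPM in replicates 2 and 3, 28770 and 33510 CPM in replicates 1 and 4, and 44810 and 39510 CPM in N2. Results were therefore also computed with either pair alone.

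The osm-9 gene itself (IV:3551090-3557431, minus strand) was counted at low level in every library. It stood at 0.846 and 0.719 CPM in N2 and at 1.87, 2.6, 2.34 and 1.31 CPM in the 4 libraries labelled osm-9(ok1677). The groups did not overlap, and the labelled mutant exceeded N2 by 1.37 on the log2 scale (standard error 0.35, edgeR adjusted p = 0.0299). At 200 mM NaCl the same contrast was 0.20 (edgeR adjusted p = 0.774). Reads are summed over the full gene, so a deletion inside it would not show and the level does not check the label. The libraries are called mutant-labelled from here on.

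Across the genome, more loci were higher in the mutant-labelled libraries than lower, but the loci that were lower were the better counted. Of 15403 loci tested, 1177 (7.64%) were higher and 713 (4.63%) lower by the quasi-likelihood test of edgeR (adjusted p up to 0.05). The rises had a median log2 fold change of 1.5 and the falls one of -0.97, with 0.045 over all tested loci. Of the rises 837 exceeded 2-fold and 422 exceeded 4-fold, whereas of the falls 324 exceeded 2-fold and 43 exceeded 4-fold. The median N2 level was 3.36 CPM for the rises and 23.9 CPM for the falls. At an unadjusted p of 0.05 or less 2635 loci were higher and 1845 lower, and a second method, DESeq2, called 1595 higher and 1253 lower. The libraries of the strains did not overlap for 3092 tested loci in the upward direction (20.1% of all) and 2339 in the downward direction (15.2%), and all 1177 rises and 712 of the 713 falls were among them. The counts rested on the small wild-type group. Without N2 replicate 1 the calls were 412 higher and 336 lower, and without N2 replicate 2 they were 207 and 124, each with a lone wild-type library at 51 mM that is assumed to vary like the other groups. Without mutant replicate 3 or 4 the falls numbered 474 or 428, and with mutant replicates 1 and 4 alone they numbered 1623. Of the 137 genes chosen for naming, 58 lost their call without N2 replicate 1 and 79 without N2 replicate 2. Those that kept it under every alternative in which they were tested include fat-2, gst-24, lys-10, clec-60, cpr-9, asp-12, Y49E10.16, the called genes of the left end of chromosome V and most of the F-box falls described below.

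**Figure D1:**
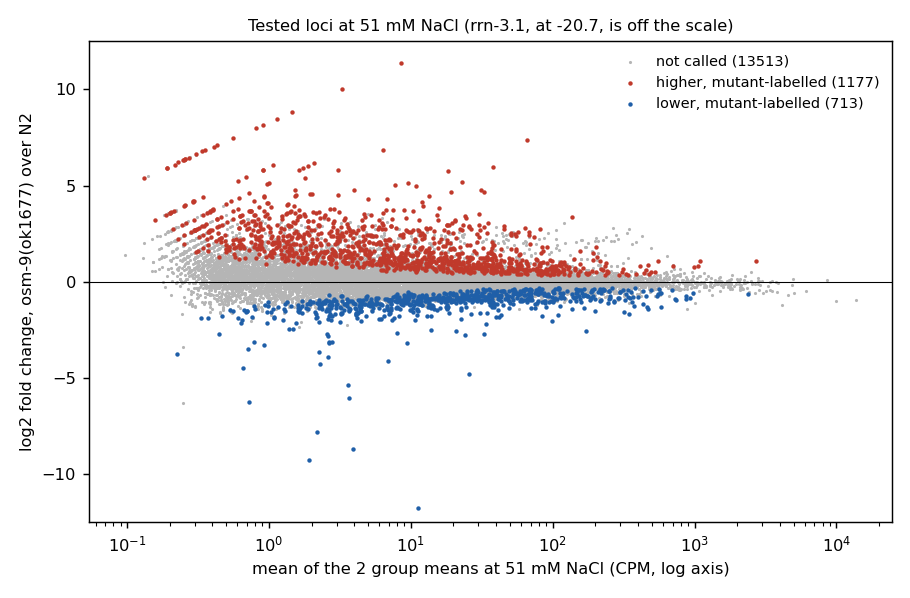
Log2 fold change of mutant-labelled over N2 libraries at 51 mM NaCl (vertical axis) against the mean of the 2 group means in CPM (horizontal log axis), 1 point a locus. The 1177 rises (red) extend to the left, at low counts and large changes, and the 713 falls (blue) lie mostly at smaller changes and higher counts.

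Of the 53 genes in the list of proteostasis genes that the study drew from these libraries, all were tested and 38 were higher here, with none lower. They made up a small part of the 1177 rises, of which 1139 lay outside that list, and the genes described below are outside it except cpr-1, tps-1 and ptc-3. The list was chosen by the study on these samples, so its direction is no independent evidence.

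The same contrast at 200 mM NaCl, made on other libraries of the same 2 strains, called 636 loci higher (4.13%) and 354 lower (2.3%). Of the 51 mM rises, 535 were also called higher at 200 mM, 45.5% of the 51 mM list and 84.1% of the 200 mM list. Of the falls, 284 were also called lower, 39.8% and 80.2% of the respective lists. No locus was called in opposite directions. A test of the difference between the 2 salt concentrations by edgeR passed for 1 locus alone, the ribosomal RNA gene rrn-3.1 described below.

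Apart from rrn-3.1, the largest falls came from a short stretch at the left end of chromosome V in which the mutant-labelled libraries had next to no counts. It runs from kin-33 to F33E11.2 (V:228134-300005, WBcel235, 71.9 kb) and holds 12 annotated genes other than piRNAs. Over those genes the 2 N2 libraries at 51 mM summed to 1581 counts and the 4 mutant-labelled libraries to 2. Counting the 200 mM libraries as well, 4 N2 libraries held 3345 counts and 8 mutant-labelled libraries held 4. F33E11.2 had 525 and 360 counts in N2 and 0 in each mutant-labelled library, at least 99.4-fold lower when set against the 3-count floor of a library (edgeR adjusted p = 2.89e-05). Its right neighbour F33E11.3 had 926 and 644 counts in N2 and 1265, 823, 948 and 1288 in the mutant-labelled libraries.

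Of the 12 genes 4 were called lower. The neuropeptide receptor gene npr-5 had 115 and 193 counts in N2 and 0, 0, 0 and 1 in the mutant-labelled libraries (edgeR adjusted p = 1.18e-04). The nuclear hormone receptor gene nhr-204 had 90 and 82 counts against 0, 0, 0 and 1 (edgeR adjusted p = 1.18e-04). The ligand-gated ion channel gene lgc-26, one of the coelomocyte markers checked here, had 88 and 65 counts against 0 in all 4, at least 18-fold lower (edgeR adjusted p = 9.70e-04). Of the 3 coelomocyte markers tested 2 lay above 0, with 1 called higher, and lgc-26 was the 1 called lower. The groups were fully apart for npr-5, nhr-204 and lgc-26, which was a condition of their choice. The others, among them the kinase genes kin-33 and kin-34 and the neuropeptide gene nlp-70, were too thinly counted in N2 to decide, at 0 to 20 counts a library, and all were at 0 in the mutant-labelled libraries. Neither strain had a count at oac-39 or str-121. To the left, srh-77 had no more than 2 counts in any library, and DC2.5 (V:210145-212787), further out, stood at 15.4 and 19.4 CPM in N2 and at 9.11 to 18.8 CPM in the mutant-labelled libraries.

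**Figure D2:**
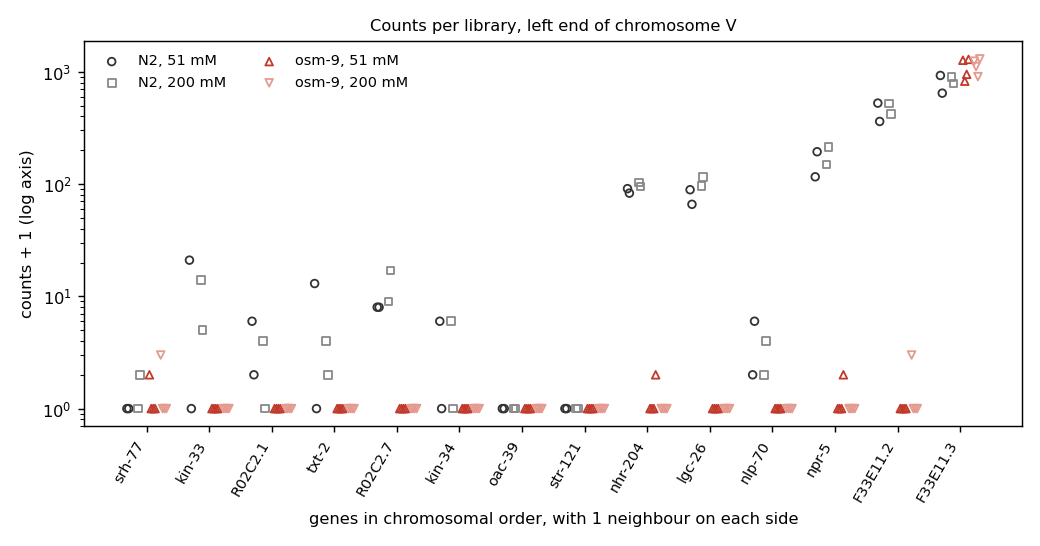
Counts plus 1 in each of the 12 libraries (vertical log axis) for the genes from kin-33 to F33E11.2 in chromosomal order, with the annotated neighbour on each side, by strain and salt concentration. The 8 mutant-labelled libraries sit at 0 to 2 counts across the stretch, while N2 reaches 525 at F33E11.2, and the strains meet again at F33E11.3.

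A second group of near-silent genes, on the right arm of the same chromosome, encodes F-box proteins, adaptors that select proteins for the SCF ubiquitin ligase and that worms carry in many copies. The 5 neighbours fbxa-191, fbxa-192, fbxa-193, fbxa-129 and fbxa-108 (V:17637982-17659385) all fell, and of these fbxa-191, fbxa-193 and fbxa-129 are annotated as pseudogenes. Their counts summed to 1333 in the 2 N2 libraries and to 105 in the 4 mutant-labelled libraries. fbxa-193 stood at 7.17 and 7.19 CPM in N2 and at 0.0457, 0.124, 0.141 and 0.105 CPM in the mutant-labelled libraries (log2 fold change -6.05, standard error 0.44, edgeR adjusted p = 1.52e-05). fbxa-108, at the right end of the group, stood at 15.2 and 10.9 CPM against 0.558 to 1 CPM (-4.15, standard error 0.25, edgeR adjusted p = 2.82e-06). The run of falls went on into dgat-2, named for the enzyme that makes triglyceride, which was at 23.2 and 48.7 CPM in N2 and at 6.34 to 11.2 CPM in the mutant-labelled libraries. Members of such families can share reads with close copies, and how the counting divided them is uncertain.

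Falls of the same size were found at F-box genes elsewhere. fbxa-6 on chromosome III stood at 4.43 and 4.32 CPM in N2 and at 0.183 to 0.262 CPM in the mutant-labelled libraries (-4.30, standard error 0.54, edgeR adjusted p = 8.27e-04). Of 192 F-box loci tested, 18 fell (9.38%) and 14 rose (7.29%), against 4.63% and 7.64% of all tested loci, and the family's median log2 fold change was -0.04. The rises included members of a run of 8 risen loci on chromosome II that starts at fbxa-161, of which fbxa-165 had no count in N2 and 0.228 to 0.786 CPM in the mutant-labelled libraries. Without N2 replicate 2 the F-box falls numbered 9 and the rises 2, and without N2 replicate 1 the rises numbered 5.

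Among the MATH and BTB proteins, another family of ubiquitin ligase adaptors, a cluster of falls lay on chromosome II. Of 79 loci tested 14 fell (17.7%, against 4.63% of all) and 5 rose, with a median of -0.07, and 9 neighbouring tested loci from bath-1 to bath-14 (II:2027612-2049175) were all called lower, with log2 fold changes of -3.15 to -1.23. bath-1 stood at 5.28 and 4.73 CPM in N2 and at 0.502, 0.434, 0.797 and 0.471 CPM in the mutant-labelled libraries (-3.15, standard error 0.31, edgeR adjusted p = 1.42e-04). bath-24 stood at 4.83 and 4.67 CPM against 0.471 to 0.620 CPM. The best counted member of the cluster, bath-5, was lower by less, at 29.4 and 21.4 CPM against 9.11 to 12.1 CPM (-1.23, edgeR adjusted p = 0.0014). The 14 falls became 9 without N2 replicate 1 and 8 without N2 replicate 2.

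Among other falls was that of Y49E10.16 on chromosome III. It was at 45 and 54.1 CPM in N2 and at 1.87, 1.74, 1.83 and 1.57 CPM in the mutant-labelled libraries (-4.82, standard error 0.17, edgeR adjusted p = 4.88e-08), and at 200 mM the contrast was -4.70. haf-6, which encodes an ATP-binding cassette transporter, was at 39.3 and 44.7 CPM against 4.56 to 6.89 CPM (-2.79, standard error 0.16). Neither group's libraries came near the other's, and for Y49E10.16 a lack of overlap was a condition of its choice. nas-21, an astacin metalloprotease gene, was at 4.43 and 3.96 CPM in N2 and at 0.183 to 0.516 CPM in the mutant-labelled libraries (-3.63, standard error 0.38, edgeR adjusted p = 2.87e-04), and its neighbour nas-20 fell with it (-1.76). Of 33 astacin loci tested 4 fell and 4 rose, 12.1% each against 4.63% and 7.64% of all tested loci. The median of the 33 was 0.765, and nas-15 (4.28) and nas-6 (3.54) were among the rises.

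The largest fall of all by number was at rrn-3.1, a copy of the gene for the large (26S) ribosomal RNA at the end of chromosome I, and it did not follow the strain. The 2 N2 libraries held 254793 and 186943 counts and the 4 mutant-labelled libraries at 51 mM held 0 each, whereas the 4 mutant-labelled libraries at 200 mM held 136083 to 280789 counts. The contrast at 200 mM was -0.21 (edgeR adjusted p = 0.731), and the change of the contrast between the salt concentrations passed its test (edgeR adjusted p = 4.08e-05). The adjoining rRNA-derived locus rrn-3.56 had 4962 and 4154 counts in N2 and 3046 to 5318 in the mutant-labelled libraries at 51 mM. The RNA was selected by its polyA tail, which ribosomal RNA lacks, and whether the zeros are measurements or a gap in the table was not tested. Leaving the locus out, an alternative chosen after seeing the data, gave 1174 rises and 711 falls.

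Falls and rises were not spread evenly among or along the chromosomes. Chromosome X as a whole had a median log2 fold change of 0.28, against -0.02 to 0.047 on the autosomes. Of its 2154 tested loci 9.84% were higher and 2.37% lower, against 7.64% and 4.63% of all. Of 102 bins of 1 Mb with at least 30 tested loci, the median bin had 3.7% of loci lower and 7.07% higher. The bin with most falls was V:16-17 Mb, with 38 of 127 loci lower (29.9%), and the next bin reached 14.7%. The bins with most rises were V:3-4 Mb, with 48 of 132 (36.4%), and the adjoining pair IV:2-4 Mb, with 82 of 248 (33.1%), followed by one at 17.3%. These windows were picked after the values were seen and were given no test of their own.

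In V:16-17 Mb most well-counted loci had lower values. Of the 54 loci there with an N2 mean of at least 5 CPM, 44 had a log2 fold change below 0 and 26 were called lower, and their median was -0.73 with quartiles of -1.03 and -0.29, against -0.03 for the 10135 such loci of the genome. Taken over these 54 loci, the median log2 ratio to the N2 mean was -0.70, -0.61, -0.73 and -0.75 in the 4 mutant-labelled libraries at 51 mM. It was -0.78 to -0.57 in the 4 at 200 mM and lay between -0.03 and 0.07 in all 4 N2 libraries. No library of one strain approached those of the other. ctps-1, for the enzyme that makes CTP, stood at 194 and 198 CPM in N2 and at 93.2, 103, 106 and 87.8 CPM in the mutant-labelled libraries (-1.01, standard error 0.11, edgeR adjusted p = 0.0004). cand-1, a regulator of cullin ubiquitin ligases, stood at 224 and 223 CPM against 123 to 142 CPM (-0.76, standard error 0.09, edgeR adjusted p = 0.0008). immt-2, of the mitochondrial inner membrane, stood at 136 and 134 CPM against 58.5 to 81.7 CPM (-0.95, edgeR adjusted p = 0.0016). syp-1, of the synaptonemal complex of meiosis, stood at 43.9 and 45.9 CPM against 26.1 to 28.1 CPM (-0.72, standard error 0.11, edgeR adjusted p = 0.00259). The uncharacterized T13F3.6 was at 521 and 529 CPM in N2 and at 123 to 214 CPM in the mutant-labelled libraries (-1.66).

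The chromosome IV window lies around osm-9 itself. Within 2 Mb on either side of the gene 577 loci were tested, of which 20.6% were higher and 2.77% lower. In the 2-4 Mb bins 145 loci had an N2 mean of at least 5 CPM, and for 115 of them the mutant-labelled mean was the higher, the median change being 0.45 on the log2 scale. The median log2 ratio to N2 over these loci was 0.29, 0.42, 0.40 and 0.52 in the mutant-labelled libraries at 51 mM and 0.40 to 0.48 in those at 200 mM. Next to osm-9, a run of 5 tested loci from ced-10 to M57.1 rose together. Of these, ced-10, a Rac GTPase, stood at 55.6 and 51.8 CPM in N2 and at 83.8, 79.6, 78.8 and 87.8 CPM in the mutant-labelled libraries (0.62, standard error 0.10, edgeR adjusted p = 0.0040), and unc-33, which guides axons, at 53.1 and 43.7 CPM against 77.6 to 98.6 CPM (0.84, standard error 0.14, edgeR adjusted p = 0.0042). The largest rises within 2 Mb of osm-9 were W08E12.2, txt-3 and the invertebrate lysozyme gene ilys-3, all below 0.11 CPM in N2, with log2 fold changes of 5.40, 4.43 and 4.35. The largest falls within that distance were the pseudogene W03F8.2, at 15.2 and 18.1 CPM against 3.04 to 8.48 CPM (-1.52, edgeR adjusted p = 0.0244), and the sperm gene msp-65 (-1.36).

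The window on the left arm of chromosome V differed in kind. Its rises were concentrated among little-studied genes that N2 hardly counted, and its 46 loci with an N2 mean of at least 5 CPM had a median log2 fold change of only 0.09, with 8 called higher and 5 lower. T28A11.20 had no count in either N2 library and 1.28, 1.92, 2.16 and 1.15 CPM in the mutant-labelled libraries, at least 7.48-fold higher against the floor (edgeR adjusted p = 0.00103). arrd-18, of the arrestin domain family, lies in the next run of rises and stood at 4.18 and 5.55 CPM against 9.68 to 12.7 CPM (1.21, standard error 0.21, edgeR adjusted p = 0.0049).

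**Figure D3:**
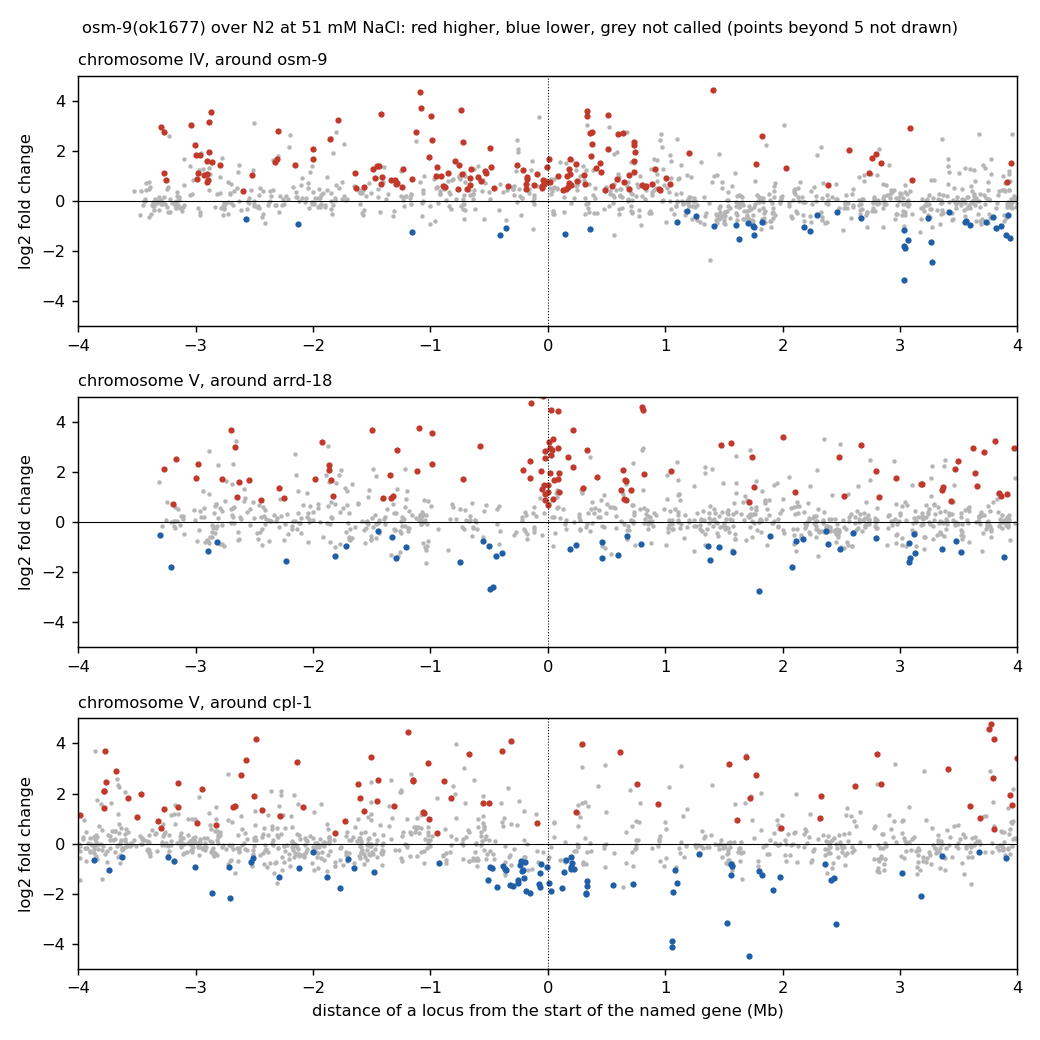
Log2 fold change of every tested locus (vertical axis) against its distance in Mb from the start of osm-9, arrd-18 and cpl-1, with rises in red, falls in blue and loci not called in grey. Red points crowd on both sides of osm-9 and in a narrow band at arrd-18, and blue points form a block around cpl-1 below 0.

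Among the best counted falls acdh-1, a mitochondrial acyl-CoA dehydrogenase of the propionate shunt, stood at 2590 and 3220 CPM in N2 and at 2010, 1630, 2030 and 1800 CPM in the mutant-labelled libraries (-0.64, standard error 0.14, edgeR adjusted p = 0.0156). sec-61.A, the pore of the endoplasmic reticulum translocon, stood at 1170 and 1190 CPM against 701 to 867 CPM (-0.60, standard error 0.13, edgeR adjusted p = 0.0127). msra-1, which repairs oxidized methionine, stood at 903 and 1370 CPM against 555 to 680 CPM (-0.92, standard error 0.20, edgeR adjusted p = 0.0136). The uncharacterized T25C12.3 stood at 921 and 1470 CPM against 536 to 827 CPM (-0.84). Every mutant-labelled library lay below both N2 libraries for each of these, which was a condition of their choice. The N2 libraries themselves differed most for T25C12.3 and msra-1.

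**Figure D4:**
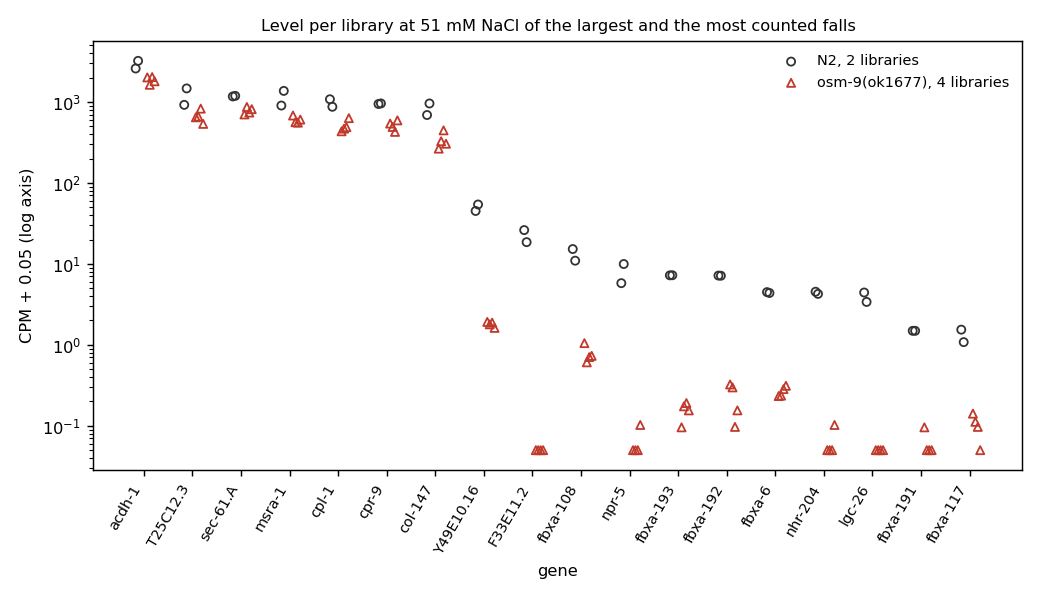
Level in CPM plus 0.05 (vertical log axis) in each 51 mM library of the largest and of the best counted falls outside rrn-3.1. The mutant-labelled libraries (triangles) lie below both N2 libraries (circles) for every gene, by less than 3-fold for the abundant genes at the left and at or near 0 for several at the right. Lying below both was a condition for choosing these genes.

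Lysosomal and secreted proteases were among the abundant falls. cpl-1, the cathepsin L of the worm, which also lies in the V:16-17 Mb window, stood at 1080 and 872 CPM in N2 and at 434, 468, 488 and 631 CPM in the mutant-labelled libraries (-0.95, standard error 0.16, edgeR adjusted p = 0.0045). cpr-9, a cathepsin B-related gene, stood at 944 and 959 CPM against 427 to 592 CPM (-0.89, standard error 0.15, edgeR adjusted p = 0.00391). asp-12, an aspartyl protease gene, stood at 16.8 and 30.2 CPM against 3.33 to 5.39 CPM (-2.52, standard error 0.32, edgeR adjusted p = 8.53e-04). Over the family, 3 of 22 tested members were lower (13.6%) and 2 higher (9.09%), against 4.63% and 7.64% of all tested loci, with a median of -0.07. The risers were cpr-1 (1.09), which is part of the study's proteostasis list, and cpr-2, with no count in N2.

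UDP-glucuronosyltransferases, which conjugate sugars to lipids and foreign compounds, split by abundance. Among all called loci the falls were likewise the better counted, with a median N2 level of 23.9 CPM against 3.36 CPM for the rises. Of 61 tested, 10 fell, a larger share than the 4.63% of all tested loci. The 7 that rose made up 11.5%, against 7.64% of all tested loci, and the median of the family was -0.19. All 10 that fell had an N2 mean of at least 22 CPM. ugt-53 stood at 25.2 and 45.6 CPM in N2 and at 7.54, 5.08, 6.33 and 4.87 CPM in the mutant-labelled libraries (-2.57, standard error 0.29, edgeR adjusted p = 0.0005), and ugt-62 at 132 and 265 CPM against 69.5 to 85.4 CPM (-1.40, edgeR adjusted p = 0.0074). The 7 that rose had an N2 mean of at most 12.7 CPM, among them ugt-18 at 0.149 and 0.308 CPM against 2.17 to 4.36 CPM (3.71, standard error 0.58, edgeR adjusted p = 0.00271). Without N2 replicate 1 the family had 11 members called lower and 1 higher, and without N2 replicate 2 it had 1 and 1. ugt-62 and ugt-53 were each higher in replicate 2 than in replicate 1, and ugt-22, one of the 10, shares its locus with other genes.

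The genes of osmolyte metabolism moved both ways in animals that had met no hypertonic agar. hmit-1.1, a myo-inositol transporter that high salt induces, stood at 42.3 and 82.7 CPM in N2 and at 9.69 to 30 CPM in the mutant-labelled libraries (-1.86, standard error 0.39, edgeR adjusted p = 0.0126). gpdh-1, the glycerol-3-phosphate dehydrogenase that makes the osmolyte glycerol, stood at 19.5 and 47.2 CPM against 7.18 to 15.4 CPM (-1.48, standard error 0.42, edgeR adjusted p = 0.0421). Over the alternatives its log2 fold change ran from -1.98 to -0.76. In the study's own measurements at 51 mM NaCl, neither gpdh-1 mRNA nor glycerol differed significantly between N2 and osm-9(ok1677). For gpdh-1 N2 replicate 1 lay closer to every mutant-labelled library than to N2 replicate 2, and neither gene was called without N2 replicate 2. Of the 25 genes of the list 3 rose (12%) and 2 fell (8%), against 7.64% and 4.63% of all tested loci. The rises were the trehalose synthase tps-1 (0.64, on the study list), hmit-1.3 (0.93) and the trehalase tre-5 (1.72). The other 20 passed in neither direction, with a median of -0.08 over all 25.

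In lipid metabolism, single abundant genes moved in opposite directions. fat-2, the desaturase that begins the synthesis of polyunsaturated fatty acids, was the most abundant rise outside the study's list and outside joined loci. It stood at 781 and 736 CPM in N2 and at 1370, 1310, 1290 and 1450 CPM in the mutant-labelled libraries (0.84, standard error 0.12, edgeR adjusted p = 0.00137), with little spread within either strain, and was called under every alternative. elo-2, a fatty acid elongase, fell from 216 and 271 CPM to 189, 130, 129 and 128 CPM (-0.76, edgeR adjusted p = 0.0473). Lipid-binding proteins lbp-8 (-2.16), lbp-7 (-0.92) and lbp-6 (-0.56) fell, with lbp-6 the most abundant at 375 and 479 CPM in N2 against 279 to 309 CPM, and none of the 3 was called without N2 replicate 2. The fatty acid and retinol-binding proteins far-7 (1.52), at 8.36 and 4.73 CPM against 15.3 to 21.5 CPM, and far-6 (0.58) rose, and the median of the 17 lipid-binding proteins was 0.17. The lysosomal lipases lipl-6 (2.95) and lipl-1 (2.88) rose from about 0.3 to 0.5 CPM in N2.

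Of 81 cytosolic ribosomal protein loci 1 rose and 1 fell (1.23% each, against 7.64% and 4.63% of all tested loci). The fall was rpl-29, at 842 and 749 CPM in N2 and 546 to 659 CPM in the mutant-labelled libraries (-0.41, standard error 0.11, edgeR adjusted p = 0.037), and the rise was a locus that joins rpl-15 with K11H12.1 and cannot be divided. Of 33 proteasome subunits edgeR called none, nor did any reach an unadjusted p of 0.05 or pass by DESeq2. Of 25 initiation factors, a list chosen after the values were seen, 4 fell (16%, against 4.63% of all tested loci), and 21 had a log2 fold change below 0. The most changed was eif-2alpha (-0.51). Of 16 constitutive chaperones 2 fell, a larger share than the 4.63% of all tested loci, and 14 had a log2 fold change below 0, the called ones being the mitochondrial chaperonin hsp-60 at 592 and 756 CPM against 352 to 478 CPM (-0.72, standard error 0.15, edgeR adjusted p = 0.0133) and the cytosolic chaperonin subunit cct-3 at 289 and 297 CPM against 231 to 237 CPM (-0.32, standard error 0.09, edgeR adjusted p = 0.0413), and neither was called without N2 replicate 2. Of 38 genes of oxidative phosphorylation cox-14 fell (-0.51), with 8 lower at the unadjusted p and 7 by DESeq2. Of all 15403 tested loci 1845 were lower and 2635 higher at the unadjusted p, and DESeq2 called 1253 lower and 1595 higher. edgeR called none of 21 glycolytic genes, also at the unadjusted p and by DESeq2, none of 9 small heat shock and inducible HSP70 genes, of which 1 was higher at the unadjusted p and 1 by DESeq2, and none of 19 body wall muscle genes, of which 2 were higher at the unadjusted p and 0 by DESeq2.

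Sperm genes were lower in part of the mutant-labelled libraries. C. elegans hermaphrodites make sperm during L4, and the list holds major sperm proteins (msp), nematode-specific peptides (nspd), ssp and spe genes. Of 93 tested, 15 fell, a larger share than the 4.63% of all tested loci, and 88 had a log2 fold change below 0, with a median of -0.57. msp-65 stood at 34.3 and 30.4 CPM in N2 and at 9.36, 19.5, 10.8 and 11 CPM in the mutant-labelled libraries (-1.36, standard error 0.28, edgeR adjusted p = 0.0114). spe-11, a sperm factor needed by the embryo, stood at 56.7 and 65.2 CPM against 26.5, 45.4, 38.6 and 24.8 CPM (-0.85, edgeR adjusted p = 0.0442). The summed level of the list was 5781 and 5286 CPM in N2 and 2594, 5278, 3577 and 3210 CPM in mutant replicates 1 to 4, so that replicate 2 lay beside N2. The count of falls followed that library. With mutant replicates 1 and 4 alone 70 of the 93 fell, without replicate 2 alone 37 did, and with replicates 2 and 3 alone 6 did. Without replicate 1, 3 or 4 the count was 7, 8 or 6, and DESeq2 called 24. No member rose by edgeR, at the unadjusted p or by DESeq2. The falls numbered 2 and 3 without N2 replicate 1 and 2.

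In the rest of the germ line few genes were called, but the oocyte and eggshell list differed between libraries. Its median log2 ratio to the N2 mean was 0.36, -0.17, -1.1 and 0.38 in mutant replicates 1 to 4. In the N2 libraries it was 0.33 and -0.44. With mutant replicates 2 and 3 alone 2 of its members were called lower. By edgeR none of 27 oocyte and eggshell genes passed, nor at the unadjusted p or by DESeq2, and none of 22 cell cycle and replication genes did, with 1 lower at the unadjusted p and 1 by DESeq2. Of 16 germline-wide genes prg-1, the Piwi protein of the piRNA pathway, rose from 174 and 167 CPM to 251, 339, 310 and 292 CPM (0.81, standard error 0.14, edgeR adjusted p = 0.00507), while pgl-1, of the P granules, fell from 372 and 411 CPM to 272 to 310 CPM (-0.45, standard error 0.10, edgeR adjusted p = 0.0179). syp-1 also fell and lies in the V:16-17 Mb window.

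Vitellogenin transcripts had lower values in most mutant-labelled libraries but did not pass the test, and none had an unadjusted p of 0.05 or less or a DESeq2 call. With mutant replicates 2 and 3 alone 4 of the 6 were called lower. vit-6 stood at 18300 and 17900 CPM in N2 and at 12200, 6590, 4580 and 14100 CPM in the mutant-labelled libraries (-0.95, standard error 0.52, edgeR adjusted p = 0.246). vit-2 stood at 13700 and 12800 CPM against 8450, 4600, 2880 and 10700 CPM (-0.99, edgeR adjusted p = 0.242). vit-5 stood at 6430 and 5000 CPM against 3820, 1410, 801 and 3960 CPM (-1.19, edgeR adjusted p = 0.256). For these genes and vit-4 the groups did not overlap, and the mutant-labelled libraries spread over 3-fold or more, with replicates 2 and 3 lowest. vit-3 (-1.1) and vit-1 (-0.37) overlapped between strains.

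A few cuticle collagens fell. col-147 stood at 690 and 958 CPM in N2 and at 265, 327, 446 and 305 CPM in the mutant-labelled libraries (-1.3, standard error 0.27, edgeR adjusted p = 0.012). col-149 stood at 413 and 651 CPM against 196 to 241 CPM (-1.25, edgeR adjusted p = 0.0039), and col-7 at 158 and 321 CPM against 75.1 to 114 CPM (-1.36, edgeR adjusted p = 0.0208). col-141 also fell (-1.2). The adult collagen col-19 was at 2540 and 2400 CPM against 1560 to 2840 CPM and did not pass (-0.37, edgeR adjusted p = 0.361). Over all 129 numbered collagens tested the median was 0.95, with 10 higher (7.75%) and 4 lower (3.1%), against 7.64% and 4.63% of all tested loci. The median log2 ratio of the list to the N2 mean was -0.22 in mutant replicate 1, 0.95 and 1.2 in replicates 2 and 3 and 0.5 in replicate 4. Without N2 replicate 2 none of the 4 was called, and with mutant replicates 2 and 3 alone 61 were higher.

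The gene groups that rose together were those of cuticle building. The worm replaces its cuticle at each molt, and the epidermis makes the precuticle, collagens and proteases for it in a wave within every larval stage. Of 20 body-shape collagens tested 6 rose (30%, against 7.64% of all tested loci), with a median of 2.35 and every member at 0.78 or more. dpy-10 stood at 4.93 and 3.18 CPM in N2 and at 30.2, 37.3, 37.3 and 22.9 CPM in the mutant-labelled libraries (2.97, standard error 0.49, edgeR adjusted p = 0.00356). Of 55 cuticlins and molting proteins 21 rose (38.2%), with a median of 1.54, and no member of either list fell by edgeR, at an unadjusted p of 0.05 or less or by DESeq2. lpr-6, a lipocalin-related protein of the precuticle, stood at 2.89 and 2.21 CPM against 18.4 to 34 CPM (3.45, standard error 0.44, edgeR adjusted p = 9.13e-04). noah-1, a precuticle matrix protein, stood at 19.7 and 22.3 CPM against 112, 130, 139 and 75.6 CPM (2.44, standard error 0.42, edgeR adjusted p = 0.0047). Every mutant-labelled library exceeded both N2 libraries for these 3 genes.

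The 21 molting rises became 8 without N2 replicate 1 and 3 without N2 replicate 2, and the 6 collagen rises became 2 and 0. With mutant replicates 2 and 3 alone 28 of the 55 and 19 of the 20 rose, and with replicates 1 and 4 alone 19 and 6 did. In the 200 mM contrast none of the 20 and 7 of the 55 were called higher, against 4.13% of all tested loci. Still, the difference between the salt concentrations passed for none of the 51 mM rises. The part of developmental stage in these differences was not tested.

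Hedgehog-related and patched-related genes, which in worms serve the epidermis and the molt, moved with them. Of 67 tested 19 rose (28.4%, against 7.64% of all tested loci), with a median of 1.26, and none fell by edgeR, at the unadjusted p or by DESeq2. In the 200 mM contrast 4 of the 67 were called higher, against 4.13% of all tested loci at that concentration. ptc-3, a patched homologue on the study list, stood at 92.0 and 67.4 CPM in N2 and at 121, 181, 192 and 152 CPM in the mutant-labelled libraries (1.02, standard error 0.20, edgeR adjusted p = 0.0081). ptr-10 stood at 1.1 and 0.668 CPM against 10.8, 6.39, 8.53 and 6.76 CPM (3.19, standard error 0.42, edgeR adjusted p = 9.70e-04). grd-11 rose in all 4 libraries but unevenly, from 0.249 and 0.0514 CPM to 0.639, 6.57, 6.47 and 1.41 CPM (4.58, standard error 1.12, edgeR adjusted p = 0.0241). The 19 became 6 without N2 replicate 1 and 4 without N2 replicate 2, and 38 with mutant replicates 2 and 3 alone.

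Regulators of the molting cycle and of stage timing rose in 5 of 17 cases (29.4%, against 7.64% of all tested loci), with a median of 0.77. None fell by edgeR, while 1 was lower at the unadjusted p and 1 by DESeq2. myrf-1, a transcription factor of the larval oscillation, stood at 12.1 and 17.7 CPM in N2 and at 44.8, 58.2, 64.3 and 32.6 CPM in the mutant-labelled libraries (1.74, standard error 0.41, edgeR adjusted p = 0.0213). grh-1, which drives cuticle genes, stood at 5.87 and 5.7 CPM against 10.5, 17.4, 18.9 and 11.8 CPM (1.34, standard error 0.30, edgeR adjusted p = 0.0172). The nuclear receptor nhr-25, needed for molting, stood at 0.597 and 1.23 CPM against 3.01, 4.40, 3.98 and 1.83 CPM (1.85, standard error 0.48, edgeR adjusted p = 0.0299). nhr-85 (1.17) and mab-10 (1.22) also rose. In the 200 mM contrast none of the 17 was called, against 4.13% of all tested loci called higher and 2.3% lower. Without N2 replicate 1 none of the list was called and without N2 replicate 2 1 was, while DESeq2 called 7.

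**Figure D5:**
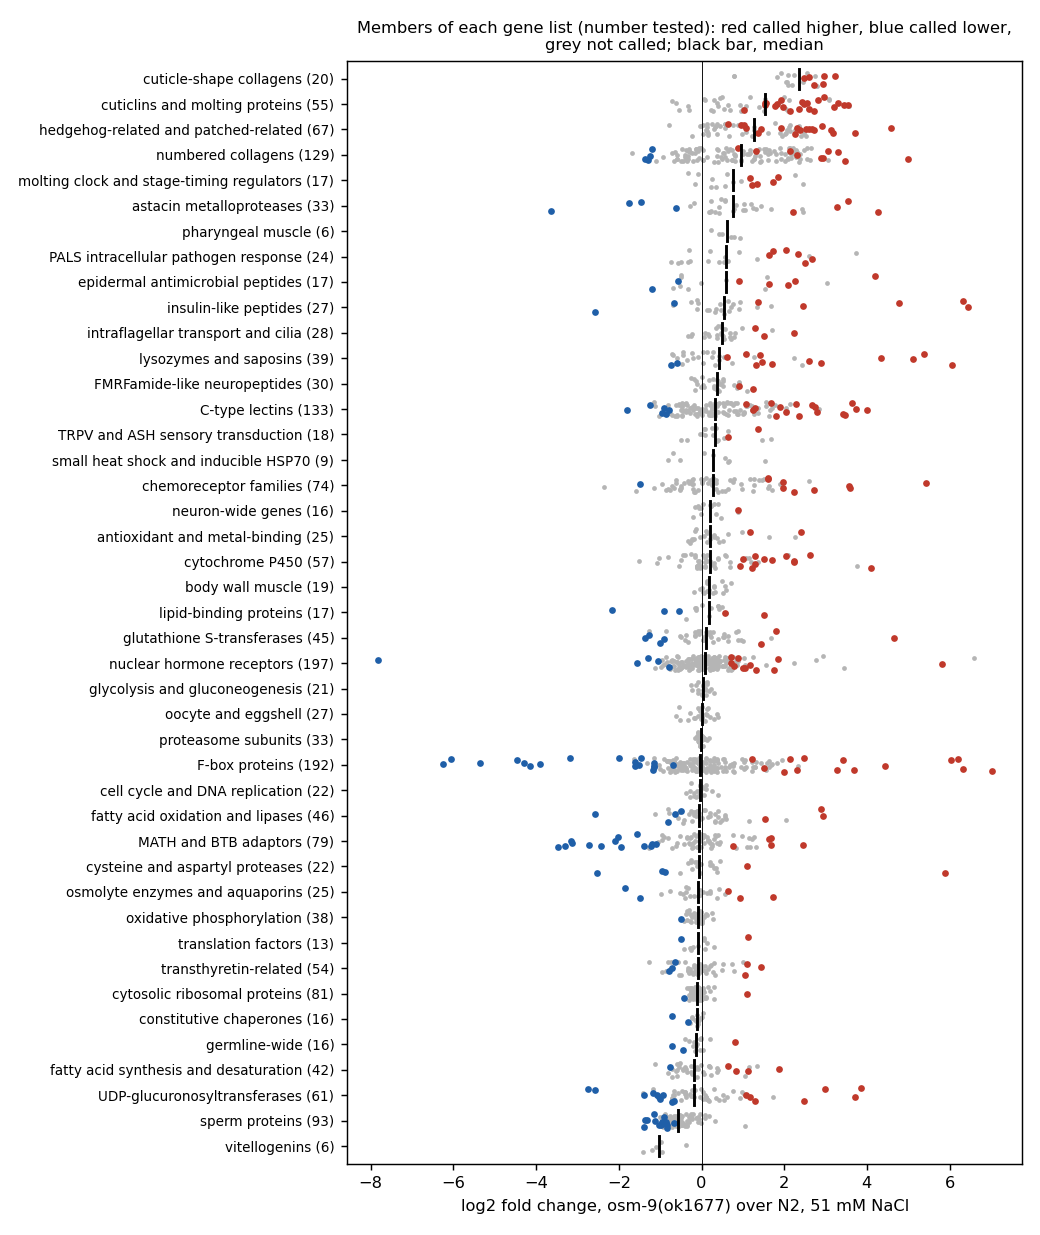
Log2 fold change of each tested member (points) of each gene list at 51 mM NaCl, with the number tested beside the name and the median as a black bar. Cuticle and hedgehog-related lists stand highest, with medians up to 2.35, sperm proteins and vitellogenins lowest at -0.57 and -1.04, and the F-box and MATH/BTB lists spread to both sides of a median near 0.

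Of 39 lysozymes and saposins, proteins that attack bacteria, 12 rose (30.8%) and 2 fell (5.13%), against 7.64% and 4.63% of all tested loci. lys-1, a lysozyme of the gut, stood at 290 and 425 CPM in N2 and at 617, 540, 546 and 503 CPM in the mutant-labelled libraries (0.63, standard error 0.18, edgeR adjusted p = 0.0431), and lost its call in 11 of 15 alternatives, with values of 0.37 to 0.87. lys-7, another, stood at 14.2 and 24 CPM against 109, 124, 79.4 and 153 CPM (2.6, standard error 0.45, edgeR adjusted p = 0.0045), and lys-10 at 0.398 and 0.668 CPM against 15.3 to 22.4 CPM (5.11, standard error 0.53, edgeR adjusted p = 2.48e-04). Against this direction lys-4 fell, from 530 and 603 CPM to 301 to 358 CPM (-0.74, edgeR adjusted p = 0.0093).

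C-type lectins, secreted sugar-binding proteins that often respond to infection, rose in 17 of 133 cases (12.8%) and fell in 6 (4.51%), against 7.64% and 4.63% of all tested loci. clec-60 rose from 0.896 and 1.18 CPM to levels between 11.3 and 19.3 CPM (3.74, standard error 0.36, edgeR adjusted p = 1.42e-04). Among the falls clec-150 went from 208 and 198 CPM to 99.8, 100, 105 and 125 CPM (-0.92, standard error 0.12, edgeR adjusted p = 0.0011). Of 24 PALS genes, a family of the response to intracellular pathogens, 6 rose (25%), none from above the 0.822 CPM of pals-39 in N2, and none fell by edgeR, at the unadjusted p or by DESeq2. pals-6 was at 0.398 and 0.668 CPM against 2.85 to 4.14 CPM (2.67, standard error 0.43, edgeR adjusted p = 0.00348). Of 17 epidermal antimicrobial peptides 5 rose (29.4%), among them cnc-4 from 6.47 and 3.29 CPM to 14.9 to 35.2 CPM (2.27, standard error 0.45, edgeR adjusted p = 0.00933), and 2 fell (11.8%), nlp-26 (-1.19) and nlp-29 (-0.56). Without N2 replicate 1 the rises were 3 lysozymes and saposins, 6 lectins, 2 PALS genes and 2 peptides, and without N2 replicate 2 they were 4, 5, 1 and 1.

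Cytochrome P450 genes, whose enzymes oxidize foreign compounds and lipids, rose in 12 of 57 cases (21.1%, against 7.64% of all tested loci), with a median of 0.20, and none fell by edgeR, with 4 lower at the unadjusted p and 2 by DESeq2. cyp-13A5 stood at 3.53 and 4.88 CPM in N2 and at 14.5 to 26.7 CPM in the mutant-labelled libraries (2.24, standard error 0.35, edgeR adjusted p = 0.00253), and its relatives cyp-13A1 (2.63) and cyp-13A4 (2.23) rose with it. Only 2 of the 12 were called when either N2 library was left out. Of 45 glutathione S-transferases 3 rose (6.67%) and 4 fell (8.89%), against 7.64% and 4.63% of all tested loci. gst-24 stood at 2.79 and 2.21 CPM against 61.7, 73.2, 59.5 and 57.1 CPM (4.65, standard error 0.22, edgeR adjusted p = 5.03e-07), with an almost equal contrast at 200 mM (4.36). gst-4, induced by oxidative stress, fell from 77.7 and 64.1 CPM to 18.8 to 39.1 CPM (-1.36, edgeR adjusted p = 0.0145). The extracellular superoxide dismutase sod-4 rose from 10.1 and 9.25 CPM to 19.6 to 24.6 CPM (1.18, standard error 0.15, edgeR adjusted p = 8.55e-04), and the ferritin gene ftn-1 from 1.74 and 1.44 CPM to between 4.93 and 11.8 CPM (2.41, standard error 0.53, edgeR adjusted p = 0.0151).

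Sensory and neuronal genes were read from whole worms. The related TRPV subunit ocr-2 stood at 3.19 and 5.45 CPM in N2 and at 2.78 to 3.78 CPM in the mutant-labelled libraries (-0.34, standard error 0.26, edgeR adjusted p = 0.412). ocr-1 and ocr-3 were under 0.75 CPM in every library and did not pass (edgeR adjusted p = 0.784 and 0.730), and ocr-4 was below the count minimum. Of 18 TRPV and ASH transduction genes tested 11.1% rose, against 7.64% of all tested loci, namely osm-9 and grk-2, a G protein-coupled receptor kinase, the latter from 5.97 and 7.04 CPM to 8.62 CPM or more (0.64, standard error 0.18, edgeR adjusted p = 0.0372), and neither was called when either N2 library was left out. Of 74 chemoreceptor genes tested 9 rose (12.2%) and 1 fell, with 3 and 2 rises without N2 replicate 1 and 2. Of 28 genes of intraflagellar transport and cilia 3 rose (10.7%), the dynein heavy chain che-3 from 4.88 and 6.63 CPM to 22.7, 33.6, 37.4 and 14.7 CPM (2.23, standard error 0.40, edgeR adjusted p = 0.0058), the kinesin osm-3 from 0.896 and 1.23 CPM to 2.42, 3.84, 3.52 and 2.30 CPM (1.5, standard error 0.33, edgeR adjusted p = 0.0156) and osm-6 (1.29). For che-3 the contrast at 200 mM was 0.67 (edgeR adjusted p = 0.316), and the difference between the salt concentrations did not pass. No cilia gene was called when either N2 library was left out.

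Insulin-like peptides, most of them made by neurons, rose in 5 of 27 cases (18.5%), 4 of them from under 0.2 CPM in N2, and 1 rise was called when either N2 library was left out. ins-35 stood at 0.0498 and 0.154 CPM in N2 and at 2.19, 3.47, 2.39 and 3.67 CPM in the mutant-labelled libraries (4.77, standard error 0.56, edgeR adjusted p = 5.69e-04), and ins-11 had no count in N2 and 0.434 to 0.733 CPM in the mutant-labelled libraries, at least 2.82-fold higher against the floor (edgeR adjusted p = 0.012). Over all tested loci 7.64% rose and 4.63% fell. The 2 insulin loci that fell (7.41%) join other genes. One of them joins ins-13 with acdh-2 and stood at 237 and 347 CPM in N2 and at 38.7 to 75.9 CPM in the mutant-labelled libraries (-2.57, standard error 0.38, edgeR adjusted p = 0.00194), and which of the 2 genes fell cannot be told.

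Some loci were counted in the mutant-labelled libraries and not in N2. At 51 mM 54 loci had at most 3 counts in each N2 library and at least 10 in each mutant-labelled one, of which 21 lay on chromosome V and 17 on II. In the opposite direction 8 were so placed, 7 of them on V. The first class asks for near silence in 2 libraries and the second in 4, and such loci passed the count filter through libraries where they are high. The 2 counts therefore do not measure a difference between the strains. The same held at 200 mM for 19 of the 54 and for 7 of the 8. F07B7.1 had no count in N2 and 315, 312, 390 and 303 counts in the mutant-labelled libraries, at least 93.4-fold higher against the floor (edgeR adjusted p = 1.23e-06). Its neighbour F07B7.2 had 18 and 8 counts against 726, 696, 661 and 708. Another pair of loci on the same chromosome (V:8828165-8831441) bears the same names and had at most 2 counts per locus in each of these libraries. Their sequences were not compared, so how reads were placed between the pairs is uncertain. ZK218.7 (V:17105783-17106656) had no count in N2 and 100, 126, 129 and 152 counts, at least 29.7-fold higher (edgeR adjusted p = 1.35e-04), and clp-10, a calpain protease gene near the left end of chromosome III, had no count against 1.46 to 2.77 CPM, at least 9.49-fold higher (edgeR adjusted p = 5.82e-04). Among better counted genes C38D9.2 was at 0.747 and 0.822 CPM in N2 and at 125, 144, 120 and 139 CPM in the mutant-labelled libraries (7.38, standard error 0.20, edgeR adjusted p = 3.76e-09).

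R02F2.1 stood at 367 and 295 CPM in N2 and at 484, 589, 615 and 739 CPM in the mutant-labelled libraries (0.88, standard error 0.18, edgeR adjusted p = 0.0119). mca-3, a plasma membrane calcium pump, stood at 372 and 443 CPM against 557, 612, 610 and 550 CPM (0.52, standard error 0.12, edgeR adjusted p = 0.016). vha-19, a vacuolar ATPase accessory subunit that lies in the chromosome IV window, stood at 398 and 477 CPM against 622, 561, 609 and 659 CPM (0.49, standard error 0.13, edgeR adjusted p = 0.032). For each of the 3 the groups were apart, a condition of their choice, and none of these changes reached 2-fold.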

How the data were processed

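RNA from 12 samples of N2 and osm-9(ok1677) worms was sequenced after polyA selection, and the authors deposited whole-number read counts per locus in 1 table with a column for each library. By the study's methods and the submitters' processing notes, reads were aligned with TopHat 1.4.1 to the WS235 assembly, assigned to Ensembl genes with Cufflinks 2.0.1 and compared with edgeR 3.2.4. Whether counting used strand is not given in the sources used here, so overlapping and antisense genes are uncertain, and 702 of the tested loci join more than 1 gene. No count column lacked a sample. Replicates were independent experiments by the study's methods.

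The deposited counts were filtered with edgeR's filterByExpr (minimum count 10, minimum total 15), which left 15403 of 41420 loci, scaled by TMM and fitted with edgeR 4.0.16 (R 4.3.3) as a quasi-likelihood model over the 4 groups of the 12 libraries, which share 1 estimate of the spread. Only the 2 groups at 51 mM NaCl entered the contrast. Calls were made at a Benjamini-Hochberg adjusted p of 0.05 or less over all tested loci. Standard errors of log2 fold changes were derived from the F statistic. CPM are TMM-scaled. On simulated counts the fit was checked for recovery of known folds. Coordinates and names come from the Ensembl WBcel235 annotation, matched by name for 15248 tested loci.

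The named genes were the called loci of 1 gene outside the study's list with non-overlapping libraries that had the 12 largest falls, the 10 largest rises, the 8 best counted falls and the 6 best counted rises, and, also with joined loci, up to 3 called members outside that list from each gene list and 3 falls and 3 rises within 2 Mb of osm-9, with all vitellogenins and TRPV genes. Other genes in the text, the bins and windows, and the genes of the chromosome stretches were chosen after their values were seen. Members and gene lists were chosen with earlier results of these data known, and the lists were given no test as sets. The pattern for cytochrome P450 names was widened to take names with letters. Leaving out rrn-3.1 was an alternative added after the data were seen. DESeq2 1.42.0 and other filters, scalings and subsets were the alternatives tried.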

Additional observations from a re-analysis of the deposited data

Results flagged for a closer look

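In 8 of the 137 named genes 1 of the 4 mutant-labelled libraries at 51 mM lay far from the other 3 by Dixon's criterion, and chance alone flags about 1 group in 20. In npr-5 and nhr-204 it was the single count of replicate 4 (0.0524 CPM) and in fbxa-191 that of replicate 1 (0.0457 CPM), beside zeros. For msp-65 replicate 2 was the highest (19.5 CPM), for col-128 replicate 4 was the lowest (7.70 CPM), for bath-13 replicate 1 was the highest (0.32 CPM), for the locus that joins K11H12.1 and rpl-15 replicate 1 was the lowest (2520 CPM), and for the locus that joins ins-13 and acdh-2 replicate 1 was the highest (75.9 CPM).

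The contrast between the strains at rrn-3.1 differed between the salt concentrations. Its log2 fold change at 200 mM exceeded that at 51 mM by 20.5 (edgeR adjusted p = 4.08e-05), with 0 counts in each of the 4 mutant-labelled libraries at 51 mM.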

How the results depend on the processing

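The main limit was the pair of N2 libraries. Leaving out 1 library at a time gave 207 to 1215 rises and 124 to 773 falls, and the lowest of each came without N2 replicate 2. With the 6 libraries at 51 mM alone there were 501 rises and 291 falls. DESeq2 called 1253 falls. With mutant replicates 1 and 4 alone 1623 fell, and leaving out rrn-3.1 gave 1174 rises and 711 falls. Of all loci called, none changed direction under any alternative. Of the named genes not called, leaving out 1 library moved vit-1 between -0.758 and 0.0548, ocr-2 between -0.684 and 0.033 and ocr-1 between -0.0442 and 0.545 on the log2 scale, and vit-1 was at 0.114 with mutant replicates 1 and 4 alone. Of the named genes 135 of 137 kept their call or lack of one with DESeq2, 133 with RLE scaling and 56 without N2 replicate 2. RLE scaling moved the median of all loci from 0.045 to -0.0011 and gave 1035 rises and 841 falls.

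The strains share replicate numbers 1 and 2 only, and nothing in the labels says that a number marks a shared day. With the number as a replicate block 2350 rose and 1704 fell, of which 1166 and 710 were among the calls above, and 5 of the 6 vitellogenins were called lower. The deviations of same-numbered N2 and mutant-labelled libraries from their group means correlated at r = 0.386 and 0.366 over 15403 loci. The deviations of the 2 N2 libraries mirror each other, so these values are not independent. Libraries of unlike number were not compared, so the values cannot tell whether a shared number matters.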

Other observations

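Several further groups, picked after the values were seen and given no test as sets, held more falls than rises. Over all tested loci 4.63% fell and 7.64% rose. Of 20 genes searched for in the methionine, folate and transsulfuration pathways 19 were tested and 6 fell (31.6%), and the median was -0.33. folt-2, a folate transporter, stood at 523 and 804 CPM in N2 and at 299, 239, 254 and 264 CPM in the mutant-labelled libraries (-1.33, standard error 0.22, edgeR adjusted p = 0.0039), and gldc-1, of the glycine cleavage system, at 393 and 535 CPM against 232 to 305 CPM (-0.77, edgeR adjusted p = 0.0156). The others were the cystathionine lyases cth-1 (-0.95) and cth-2 (-1) and the S-adenosylmethionine synthetases sams-1 (-0.84) and sams-3 (-0.57). For sams-1 and cth-2 the N2 libraries differed from each other by more than 1.7-fold.

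In the breakdown of propionate and branched-chain amino acids 6 of 19 tested loci fell (31.6%, against 4.63% of all tested loci). They were acdh-1 (-0.64), a locus joining hach-1 with rpc-2 (-0.76), dbt-1 (-0.53), bckd-1B (-0.52), mma-1 (-0.41) and mccc-1 (-0.35). Of 67 mitochondrial ribosomal proteins 9 fell (13.4%), with a median of -0.30 over the list, the largest fall being mrps-21 (-0.83). Of 19 fungus-induced related peptides (fipr), 6 fell (31.6%) and 1 rose (5.26%).

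Outside these groups bcf-1 fell from 548 and 828 CPM to 207 to 316 CPM (-1.41, standard error 0.23, edgeR adjusted p = 0.0034), and its contrast at 200 mM was -1.43.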
